A study of Arabidopsis thaliana with 8 samples.

Results

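SPCH (SPEECHLESS, AT5G53210), FMA (known as FAMA, AT3G24140) and TRY (TRIPTYCHON, AT5G53200) are transcription regulators that set the pattern of the leaf epidermis. They were followed on 8 one-colour Affymetrix arrays of Arabidopsis thaliana leaf RNA, 4 labelled fbn5-1 and 4 labelled wild type (WT). The 3 genes were taken by symbol, each through its brightest probe set that names it alone. Each had exactly 1 such probe set, so they are 3 of the 16546 genes that a probe set names alone. They were chosen with the difference between the genotype labels already known. Their values are therefore a description and carry no test.

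The fbn5-1 line carries a T-DNA insertion in FBN5, which encodes a fibrillin, a lipid-associated protein of plastids. Both groups are of the Col-0 accession and were 3 weeks old, raised untreated on 0.5x MS medium holding 1% sucrose, at 25 °C, 60% humidity and days of 16 h light to 8 h dark. Only this 1 insertion allele was profiled here. Whether the 4 replicates of a genotype were separate plants is not said in the labels, so the spread between arrays may be technical.

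In the stomatal lineage, SPCH starts the series of asymmetric divisions of young epidermal cells and MUTE ends those divisions. FMA acts at the end of the lineage, in the identity of the 2 guard cells. All of them are basic helix-loop-helix (bHLH) proteins that act with the partners ICE1 and SCRM2. Secreted peptides tune the lineage through receptors of the ERECTA family and TMM: EPF1 and EPF2 restrain it, and STOMAGEN, made in the inner leaf, promotes it. Trichomes, the leaf hairs, are started by a complex of MYB and bHLH proteins with TTG1. TRY, a small MYB protein with a single repeat, moves into neighbouring cells and blocks that complex there, which keeps trichomes apart.

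Some facts of the whole series bear on these genes. FBN5 (AT5G09820) was not lower on the arrays labelled fbn5-1, with log2 signals of 4.71, 4.52, 4.76 and 4.58, against 3.54, 3.35, 3.43 and 5.15 on the arrays labelled WT (difference 0.78, SE 0.36; limma adjusted p = 0.173). Leaving out WT array 4 gave a called increase of 1.20 (adjusted p = 0.000524), and so did array weights (1.14, adjusted p = 0.00396). The position of its probe set against the insertion is unknown, so arrays are called by their labels and every direction rests on these. WT array 4 stood apart: its correlation with the other arrays over all probe sets lay between 0.953 and 0.964, and the other arrays correlated at 0.974 to 0.992 among themselves. Of the leaf markers, RCA (Rubisco activase) lay between 10.87 and 11.08 on the arrays labelled fbn5-1 and between 10.98 and 11.02 on those labelled WT. PRK lay between 7.88 and 8.08 on the former and between 7.76 and 8.36 on the latter. PSAE-1, a photosystem I subunit, lay between 10.54 and 10.69 against 10.75 to 10.84, and was called lower (limma adjusted p = 0.0392). Of the 2 root markers with a probe set of their own, PYK10, a beta-glucosidase, was bright, at 9.26 to 9.72 on the arrays labelled fbn5-1 and 9.23 to 9.70 on WT arrays 1 to 3, with 6.84 on WT array 4. The other, EXPA7, a root hair expansin, lay between 2.38 and 2.83 on the arrays labelled fbn5-1 and between 2.41 and 2.64 on those labelled WT, around the filter value of 2.79: probe sets with a mean below it were not tested.

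SPCH was higher on the arrays labelled fbn5-1, and very unevenly so. Its log2 signal was 5.08, 2.86, 3.70 and 5.32 on fbn5-1 arrays 1 to 4. On WT arrays 1 to 4 it was 2.21, 2.63, 2.79 and 2.48. Arrays 1 and 4 labelled fbn5-1 were far above all others, array 3 was intermediate, and array 2 exceeded the highest WT array by only 0.07. The means were 4.24 ± 1.16 on the arrays labelled fbn5-1 and 2.53 ± 0.25 on those labelled WT (SD, n = 4 each), a difference of 1.71 on the log2 scale.

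The 4 WT values of SPCH all lay at or under the filter value of 2.79, that is, in the range of dim probe sets, so the size of the difference depends on signal near the floor. With every value below the filter raised to it, an alternative chosen after seeing the data, the difference was 1.45. With 16 added to the linear signal it was 0.76. On the linear scale SPCH measured 33.8, 7.26, 13.0 and 39.95 signal units on the arrays labelled fbn5-1, against 4.63, 6.19, 6.92 and 5.58 on those labelled WT. Leaving out 1 array at a time gave log2 differences between 1.35, when fbn5-1 array 4 was the one left out, and 2.17, when it was fbn5-1 array 2. In bulk RNA, more cells of a type and more RNA per cell cannot be told apart.

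SPCH also spread widely among the arrays labelled fbn5-1. Its SD there was 4.72 times its SD on the arrays labelled WT, and only 0.163% of the 17147 tested probe sets had an SD as large on the arrays labelled fbn5-1. On the arrays labelled WT, 31.1% of probe sets had an SD at least as large as that of SPCH. All 4 WT values of SPCH were dim, so the ratio of the SDs rests in part on signal near the floor. The gene was chosen with this contrast known. It passed the filter only through its values on the arrays labelled fbn5-1. Its place among the tested probe sets is therefore a description only.

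FMA, at the other end of the lineage, had nearly the same signal under both labels. It measured 5.66, 5.47, 5.24 and 5.58 on the arrays labelled fbn5-1, against 5.66, 5.33, 5.90 and 5.81 on the arrays labelled WT. The groups overlapped, with array 1 of both labels at the same value. The means were 5.49 ± 0.18 on the arrays labelled fbn5-1 and 5.68 ± 0.25 on those labelled WT (SD, n = 4 each). The difference of -0.19 lay within the spread of the arrays labelled WT, and 54.5% of tested probe sets had a difference at least as large in either direction. The 2 fbn5-1 arrays with the highest SPCH signal, 4 and 1, also had the highest FMA signal of their group, but FMA varied by 0.42 there and SPCH by 2.46.

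TRY was higher on the arrays labelled fbn5-1. It measured 6.23, 6.29, 6.67 and 6.24 there on the log2 scale, against 6.01, 5.37, 4.78 and 5.56 on the arrays labelled WT. Every fbn5-1 array lay above every WT array, with a gap of 0.22 between fbn5-1 array 1 and WT array 1. The means were 6.36 ± 0.21 on the arrays labelled fbn5-1 and 5.43 ± 0.51 on those labelled WT (SD, n = 4 each), a difference of 0.93 or 1.90-fold. Unlike SPCH, TRY was uneven on the side labelled WT, where it ranged over 1.23 with WT array 3 lowest, and lay within 0.44 on the other side. All 8 values were well above the filter value, and 16 added to the linear signal left a difference of 0.72.

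Thus for 2 of the 3 genes all fbn5-1 arrays lay above all WT arrays, which was so for 11.7% of all tested probe sets (11.9% lay the other way, all below). Nothing is read from that count, since the genes were chosen on this contrast. WT array 4 did not set these values: without it the differences were 1.70 for SPCH, -0.14 for FMA and 0.97 for TRY.

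**Figure D1:**
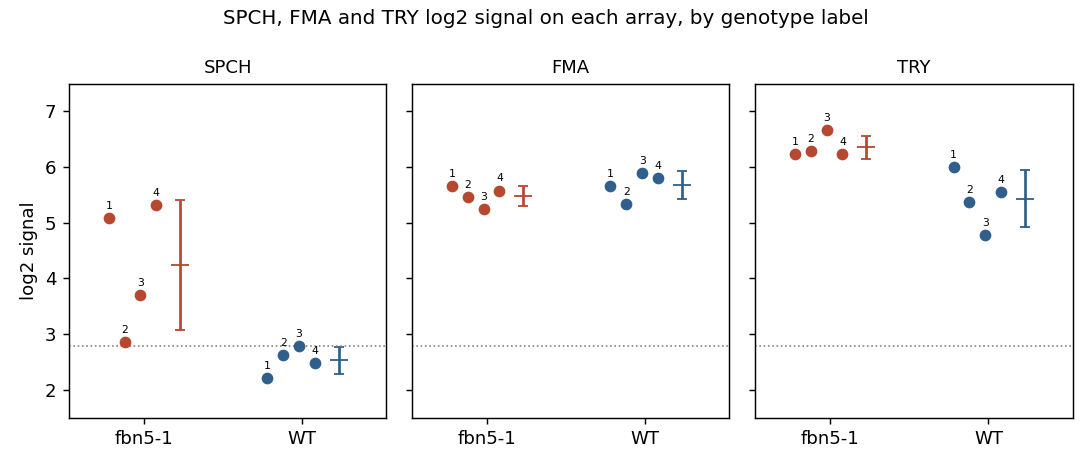
Log2 signal of SPCH, FMA and TRY on each array (numbered points), with fbn5-1 left and WT right, and the mean ± SD of 4 arrays beside the points. The dotted line is the filter value of 2.79: the 4 WT values of SPCH lie under it and its fbn5-1 values spread from 2.86 to 5.32, while FMA overlaps between labels and TRY does not.

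SPCH and TRY are direct neighbours in the chromosome order of the TAIR10.1 annotation, with 0 genes between them. Of the genes beside them only AT5G53220 could be tested, and it did not share their differences. SWEET3, a sugar transporter family gene on the far side of TRY, stayed between 1.24 and 1.52 on all 8 arrays, and AT5G53230, 2 places past SPCH, between 2.15 and 2.86; both were too dim to be tested. AT5G53220, next to SPCH, had a difference of -0.03 (SE 0.16; limma adjusted p = 0.928). PTB2, 2 places past TRY, had no probe set of its own. The pair itself did not vary together within a genotype label. Across the 8 arrays their signals had a Pearson r of 0.48 and a Spearman rho of 0.57, but the deviations from the group means had an r of -0.34. SPCH was highest on fbn5-1 array 4, and TRY on fbn5-1 array 3.

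Around FMA, AT3G24120 and AT3G24150 had differences of 0.00 (SE 0.11) and -0.12 (SE 0.11), with limma adjusted p of 1 and 0.505. AT3G24130 lay between 1.26 and 1.73, below the filter, and the non-coding gene AT3G04625 had no probe set of its own.

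Few other genes of the stomatal lineage could be followed. Of 28 further genes listed for the lineage, 4 had a probe set of their own and 3 were bright enough to be tested. Over all 17147 tested probe sets, 8.22% were called higher and 8.55% lower at a limma adjusted p under 0.05. In this list 1 gene rose, 0 fell and 2 were not called, with a median difference of 0.06, against -0.015 over all tested probe sets. ICE1, SCRM2, TMM, EPF1, EPF2 and the ERECTA family had no probe set that names them alone.

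STOMAGEN, the peptide that promotes stomatal development, rose on the arrays labelled fbn5-1. It measured 4.76, 4.83, 5.05 and 4.58 there, against 3.75, 3.86, 3.64 and 3.66 on the arrays labelled WT. The groups did not overlap, and each was tight. The difference was 1.08 (SE 0.12; limma adjusted p = 0.00187). On linear signals raised by 16 it was 0.59. The order of the fbn5-1 arrays differed from that of SPCH: fbn5-1 array 4, highest for SPCH, was lowest for STOMAGEN, and array 3 was highest.

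MUTE, which acts between SPCH and FMA, was below the filter on every array. It measured 2.05, 2.15, 1.68 and 2.17 on the arrays labelled fbn5-1, against 1.63, 1.46, 1.70 and 1.43 on the arrays labelled WT. The groups overlapped through fbn5-1 array 3. When probe sets of all levels were tested, its difference of 0.46 (SE 0.13) was not called (limma adjusted p = 0.0547).

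ATSBT5.2, a subtilisin-type protease, measured 5.66, 5.78, 5.88 and 6.25 on the arrays labelled fbn5-1, against 7.12, 6.58, 6.75 and 6.02 on the arrays labelled WT. WT array 4 lay inside the fbn5-1 range, and the difference of -0.73 (SE 0.22) was not called (limma adjusted p = 0.0555). It was called when WT array 4 was left out (-0.92, adjusted p = 0.00548), or fbn5-1 array 4 (-0.84, adjusted p = 0.0482). ATBRXL2, a BRX-like protein tied to the polarity of dividing lineage cells, had a difference of 0.06 (SE 0.20; adjusted p = 0.875). The 1 guard cell marker of 13 with a probe set of its own, AT1G22690, lay between 9.03 and 9.37 on the arrays labelled fbn5-1 and between 9.18 and 9.62 on those labelled WT (difference -0.15, SE 0.11; adjusted p = 0.381).

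The bHLH genes closest to SPCH and FMA, known as subgroup Ia, were better covered and went both ways. Of the 8 relatives other than SPCH and FMA, 7 had a probe set of their own, MUTE included, and 4 were tested: 2 rose, 1 fell and 1 was not called, against 16.8% of all tested probe sets called in either direction. Their median difference was 0.48. This list was chosen with earlier results of these data known, so its count is a description only. AT1G72210 and AT5G65320 were, like MUTE, too dim to be tested.

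AT3G61950 rose. It measured 4.05, 3.53, 3.98 and 3.97 on the arrays labelled fbn5-1, against 3.42, 3.07, 2.96 and 2.73 on the arrays labelled WT, without overlap (difference 0.84, SE 0.17; limma adjusted p = 0.0137). AT4G01460 rose too, with 5.10, 4.63, 5.17 and 5.16 on the arrays labelled fbn5-1, against 4.48, 4.43, 4.64 and 4.27 on the arrays labelled WT. Its groups overlapped through fbn5-1 array 2 and WT array 3, which were almost equal (difference 0.56, SE 0.15; adjusted p = 0.0306). For both genes, as for SPCH, fbn5-1 array 2 was the lowest of its group.

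AT1G22490 (bHLH94) fell. It measured 3.69, 3.68, 3.89 and 3.68 on the arrays labelled fbn5-1, against 4.2, 4.49, 4.03 and 4.21 on the arrays labelled WT, without overlap (difference -0.50, SE 0.12; limma adjusted p = 0.0242). AT2G46810, with a difference of 0.395 (SE 0.15), was not called (adjusted p = 0.108), although its fbn5-1 values of 4.06 to 4.50 all exceeded its WT values of 3.5 to 4.04. On linear signals raised by 16 the differences of the 3 called relatives were smaller, at 0.34 for AT3G61950, 0.35 for AT4G01460 and -0.25 for AT1G22490. The calls of AT4G01460 and AT1G22490 did not hold in every fit with 1 array left out. Both ended when WT array 1 or 2, or fbn5-1 array 1 or 4, was left out. Leaving out fbn5-1 array 3 ended that of AT4G01460 as well (adjusted p = 0.0841), and fbn5-1 array 2 that of AT1G22490 (0.0593).

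**Figure D2:**
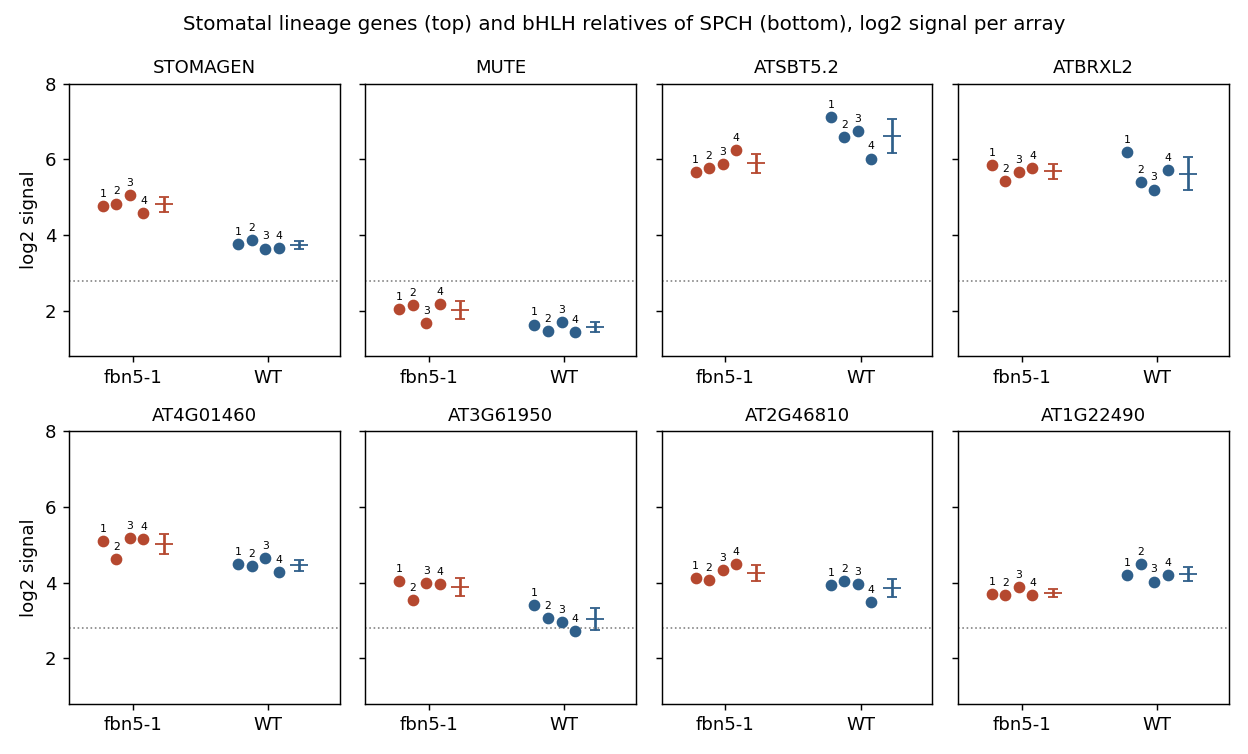
Log2 signal per array of 4 stomatal lineage genes (top row) and 4 bHLH relatives of SPCH (bottom row), fbn5-1 left and WT right in each panel, with mean ± SD of 4 arrays and the filter value dotted. STOMAGEN and AT3G61950 sit higher without overlap in fbn5-1, AT1G22490 sits lower, and all MUTE values are below 2.79.

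Few genes of trichome patterning and growth other than TRY could be followed. Of 29 listed, 5 had a probe set of their own and 4 were tested, of which 0 rose and 0 fell. With 16.8% of all tested probe sets called in either direction, so small a list says little by its count. The limma p-values of the 4, adjusted over all probe sets, lay between 0.136 and 0.901, and their median difference was 0.00. TCL1, the other single-repeat MYB inhibitor that could be followed, measured 2.78, 3.08, 3.63 and 3.28 on the arrays labelled fbn5-1, against 3.71, 2.94, 2.72 and 3.18 on the arrays labelled WT. Its groups overlapped widely (difference 0.06, SE 0.24, limma adjusted p = 0.901). Within each label its highest and lowest arrays were those of TRY. Array 3 was highest and array 1 lowest on the fbn5-1 side, and array 1 highest and array 3 lowest on the WT side. TRY itself was nearly tied on fbn5-1 arrays 1 and 4, at 6.23 and 6.24. ATBRXL2, of the stomatal list, had the same highest and lowest WT arrays.

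GIS, a zinc finger protein that promotes trichome formation, lay between 2.55 and 2.87 on the arrays labelled fbn5-1 and between 2.73 and 3.58 on those labelled WT (difference -0.425, SE 0.18; limma adjusted p = 0.136). It was called without WT array 4 (-0.56, adjusted p = 0.0346). AN, which acts in trichome branching, and AT5G06700 (TRICHOME BIREFRINGENCE, of the trichome wall) had differences of 0.15 (SE 0.12) and -0.05 (SE 0.11). SIM, a cell cycle inhibitor needed for endoreduplication in trichomes, was below the filter in its mean, with 2.12, 2.1, 2.35 and 2.40 on the arrays labelled fbn5-1, against 2.76, 2.82, 2.78 and 2.31 on the arrays labelled WT. WT array 4 alone made these groups overlap.

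The genes of dividing cells that could be followed rose on the arrays labelled fbn5-1. Their list was chosen with earlier results of these data known, so its count is a description only. Of 24 listed, 6 had a probe set of their own, and all 6 of these rose, with a median difference of 1.35, against 8.22% of all tested probe sets called higher. On linear signals raised by 16 their differences were smaller, between 0.51 (AUR1) and 0.87 (TOPII), so these sizes too depend on dim signal. The mean log2 signal of the 6 was 5.06, 4.095, 4.46 and 4.69 on the arrays labelled fbn5-1, against 3.38, 3.35, 3.34 and 2.82 on the arrays labelled WT. As for SPCH, fbn5-1 arrays 1 and 4 were highest and array 2 lowest. On array 2 the mean of the division genes stayed well above every WT array, but the single genes differed. There AUR1 was at 3.94, against 3.92 on its highest WT array, as close as SPCH came. TOPII was at 4.63, against 3.35.

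BUBR1, of the spindle checkpoint, came closest to SPCH, with 5.05, 3.84, 3.90 and 4.98 on the arrays labelled fbn5-1, against 3.01, 2.85, 3.05 and 2.71 on the arrays labelled WT (difference 1.54, SE 0.29; limma adjusted p = 0.00928). The deviations of BUBR1 from its group means had an r of 0.92 with those of SPCH over the 8 arrays, and those of AUR2, an Aurora kinase, an r of 0.81. For AUR1, TOPII (a DNA topoisomerase), ICU2 (a DNA polymerase subunit) and PRL (the replication factor MCM7) this r was 0.69, 0.50, 0.44 and 0.38. FMA and TRY did not follow these genes alike: their deviations had r between -0.20 and 0.51 for FMA, and between -0.29 and -0.005 for TRY. These correlations describe 8 arrays that share 2 genotype labels, and the part of dividing cells in the SPCH signal was not tested. The SD of SPCH was 1.16 on the arrays labelled fbn5-1 and 0.25 on those labelled WT, so its r values rest mostly on the fbn5-1 arrays. The call of AUR1 ended when WT array 1 or fbn5-1 array 1, 3 or 4 was left out (highest adjusted p 0.0645).

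**Figure D3:**
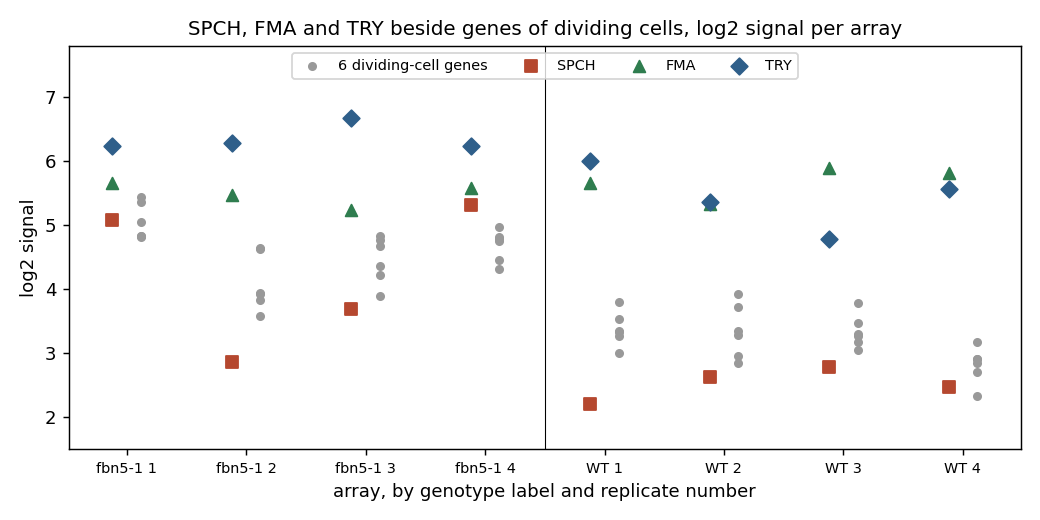
Log2 signal of SPCH (squares), FMA (triangles), TRY (diamonds) and 6 genes of dividing cells (grey points) on each array, fbn5-1 left of the line and WT right of it. SPCH is high on fbn5-1 arrays 1 and 4, where the grey points are also high (means 5.06 and 4.69), and lower on arrays 2 and 3. Levels of different probe sets are not comparable, so only the pattern over arrays is to be read.

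Markers of other cell types gave little. In the mesophyll list 3 of 7 genes had a probe set of their own. RCA and PRK were not called, and 1 was called lower, against 8.55% of all tested probe sets. This was PSAE-1, which fell by 0.17 on the log2 scale without overlap (SE 0.05, limma adjusted p = 0.0392). Among the fits that left out 1 array, that call held only when WT array 4 or fbn5-1 array 4 was the one left out. CR4 (ACR4), a receptor kinase of the epidermis and the only 1 of 10 epidermal markers with its own probe set, lay between 1.44 and 1.69 on the arrays labelled fbn5-1 and between 1.22 and 1.46 on those labelled WT, below the filter. The root gene PYK10 was not called (difference 0.705, SE 0.54; adjusted p = 0.404), and its difference was 0.06 once WT array 4 was left out (adjusted p = 0.791). None of 4 phloem companion cell markers had a probe set of its own, so 0 were tested.

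The genes whose signal was most like that of SPCH were looked for among the 9063 other tested probe sets that name 1 gene, by Pearson's r over the 8 arrays. They were NRPA2 (a subunit of RNA polymerase I, r = 0.98), DECOY (0.97), AT1G80750 (0.96), AT1G16870 (0.96) and AT1G45207 (0.96). NRPA2 measured 5.70, 5.39, 5.47 and 5.71 on the arrays labelled fbn5-1, against 5.21, 5.28, 5.31 and 5.35 on the arrays labelled WT. Like SPCH it was high on fbn5-1 arrays 1 and 4, but over a much narrower range. Within genotype labels r was between 0.91 and 0.96 for the 5 genes. Without fbn5-1 arrays 1 and 4, the 2 farthest from the median of SPCH, r was between 0.66 (AT1G80750) and 0.89 (DECOY).

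For FMA the 5 were AT4G35410 (r = 0.93), AT4G32780 (0.92), AT5G22480 (0.92), AT3G47610 (0.90) and AT3G06610 (0.90), with r between 0.77 and 0.83 once fbn5-1 array 3 and WT array 2 were left out. For TRY they were AT1G63660 (r = 0.99), AT1G63850 (0.98), AT2G41050 (0.98), AT1G71810 (0.98) and AT3G24460 (0.97). AT2G41050 and AT3G24460 ranked the 8 arrays exactly as TRY did (Spearman rho = 1). AT3G24460 measured 7.71, 8.36, 8.51 and 7.82 on the arrays labelled fbn5-1, against 7.24, 6.78, 5.53 and 6.91 on the arrays labelled WT, with WT array 3 lowest as for TRY. Without WT arrays 2 and 3, the farthest from the median of TRY, r for its 5 genes was between 0.91 and 0.97. With 8 arrays and so many genes compared, high values of r are found readily, and these are descriptions only.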

How the data were processed

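Log2 signals per probe set and array were used as the authors deposited them; the submitters' processing notes name MAS5, and other steps are not given in the sources used here. The log base, which no source states, was inferred from their range. The deposited series table (38408 probe sets) and series matrix (28583) were identical over their shared probe sets, and the matrix was used. Probe sets were named from the platform annotation, with symbols updated through RefSeq (TAIR10.1), where 16601 of 16746 matched. Array medians lay between 3.42 and 3.49, so no rescaling was done.

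Probe sets with a mean above the 40th percentile (2.79) were tested with limma 3.58.1 in R 4.3.3 (lmFit, eBayes with an intensity trend), as fbn5-1 minus WT. P-values were two-sided and adjusted over 17147 probe sets (Benjamini-Hochberg). The fit was tested on simulated data. The number of arrays limits the precision.

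Members and gene lists were chosen with earlier results of these data known. Named genes were the 3 members, FBN5, list genes (called ones first), 2 annotated neighbours on each side, and 5 genes per member by correlation. Alternatives were other scalings, 16 added to the linear signal, other filters, other spread models, array weights, a replicate block and leaving out each array. Same-numbered arrays were not treated as pairs in the main fit. Their deviations from group means had correlations of 0.16, -0.19, -0.04 and 0.002, which cannot exclude a pairing.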

Additional observations from a re-analysis of the deposited data

Results flagged for a closer look

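Among the 53 genes described, values of 1 array far from the other 3 of its label were searched for with Dixon's criterion at its usual critical value (the gap to the nearest array over the group's range). It marked 12 of 106 groups (11.3%). The critical value is set to mark about 5% of independent groups by chance. These groups share the same arrays, and some of the genes were chosen by correlation with the main genes. No excess over chance is therefore read from the share marked. Of the 3 main genes the criterion marked TRY, whose 6.67 on fbn5-1 array 3 stood above 6.23 to 6.29 on the other fbn5-1 arrays. SPCH was not marked, because fbn5-1 arrays 1 and 4 were both high.

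WT array 4 held 6 of the 12. FBN5 was at 5.15 there, against 3.35 to 3.54 on the other WT arrays. SIM was at 2.31 (others 2.76 to 2.82), TOPII at 2.85 (3.29 to 3.35), ICU2 at 2.33 (3.27 to 3.35), PYK10 at 6.84 (9.23 to 9.70) and AT3G24130 at 1.73 (1.42 to 1.44).

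On fbn5-1 array 2, AT4G01460 was at 4.63 (others 5.10 to 5.17), AT3G61950 at 3.53 (3.97 to 4.05) and AUR1 at 3.94 (4.76 to 4.84). On fbn5-1 array 3, AT1G22490 was at 3.89 (others 3.68 to 3.69). On WT array 1, AT1G45207 was at 3.46 (others 3.77 to 3.80).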

How the results depend on the processing

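The differences of SPCH, FMA and TRY kept their sign under every scaling and with each array left out. For SPCH and TRY all fbn5-1 arrays lay above all WT arrays. Leaving out an array could therefore not change their sign, and nothing is read from that. With 1 array left out they ranged from 1.35 to 2.17 for SPCH, from -0.30 to -0.105 for FMA and from 0.71 to 1.12 for TRY. With 16 added to the linear signal SPCH had 0.76, so its size rests on dim signal. Called probe sets, 2876 in all, numbered 1731 with the replicate number as a block, 4450 with array weights, and 1738 to 3875 with 1 array left out, highest without WT array 4. The stomatal lineage list had 2 genes called, STOMAGEN and ATSBT5.2, with median centring, with the 60th percentile filter and with array weights (1 to 2 with 1 array left out). The trichome list had 1, GIS, with array weights (0 to 1 with 1 array left out). Of the bHLH relatives, 1 was called with the 60th percentile filter, where 1 was tested, and 1 with the replicate block (1 to 3 with 1 array left out). The mesophyll list had 0 with the replicate block, with no filter and with no intensity trend (0 to 1 with 1 array left out). STOMAGEN and AT3G61950 kept their calls in all 17 and 16 alternatives that could test them. Whether the replicate numbers pair the arrays is not settled by so few correlations. With the block, AT4G01460, AT1G22490, AUR1 and PSAE-1 lost their calls (limma adjusted p = 0.0576, 0.0757, 0.0647 and 0.103). Other probe sets of the 3 main genes were not run, since each has 1.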
